A study of Homo sapiens with 6 samples.

Results

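The 1369 regions described here are middle cleavage and polyadenylation sites of 3′ UTRs that carry a polyadenylation signal, measured in LNCaP cells, an androgen-sensitive human prostate cancer line. They were chosen from the 4903 sites of the deposited site table, of which they are 27.9%, by 2 labels of that table. The site type had to be M, for a middle site where a 3′ UTR has several, and the signal label had to name a signal. No source used here defines the type codes, and M was read as middle from the order of the sites along the strand. Of the 1570 middle sites, 139 labelled as having no signal and 62 labelled as A-rich were left out. The members belong to 1174 of the 3118 genes in the table, and no usage value entered the choice.

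The study silenced Sam68 (gene KHDRBS1) or XRN2 with 50 nM small interfering RNA, transfected in repeated rounds with Lipofectamine RNAiMax over 48 hours. The control cells received a scrambled siRNA. The groups are named siCTRL, siSAM68 and siXRN2 below, and each has 2 libraries that the labels call biological replicates. All groups share 1 cell line and 1 time point, and nothing in the labels says whether the replicates came from separate cultures, so p-values measure the spread between these libraries only. The assay was 3′READS, a method that reads transcript ends beside the poly(A) tail and so gives the position of cleavage.

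A pre-mRNA is cleaved and polyadenylated a short distance downstream of a hexamer that the cleavage and polyadenylation specificity factor binds. Many 3′ UTRs hold several such sites, and the choice among them sets how much of the 3′ UTR, with its binding sites for microRNAs and RNA-binding proteins, stays in the mRNA. Middle sites lie between a shorter and a longer form, so their share can be lost to either side. Sam68 is a STAR-family RNA-binding protein known for its roles in splicing and in the choice of 3′ ends, and XRN2 is the nuclear 5′-to-3′ exonuclease that degrades the RNA left on the polymerase after cleavage during termination. The hexamers define the members, and the table spells 2 of them, shown here because they separate the members by use.
canonical signal: AATAAA
main variant: ATTAAA
The remaining members carry another variant, which the table names as a class and does not spell.

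The canonical hexamer was named at 726 members (53.0%), the main variant at 280 (20.5%) and another variant at 363 (26.5%). Among the last sites with a signal, 70.1% carried the canonical hexamer, and among the first sites with a signal 48.7% did. Usage is the percent of the reads of a gene, in 1 library, that end at a site. The median of the members' mean usage over the 6 libraries was 26.1% for the canonical hexamer, 20.5% for the main variant and 11.5% for the other variants. Usage of at least 50% was reached by 29.2%, 20.4% and 11.8% of them in that order. The order was the same in the median of each of the 6 libraries, which ran from 24.2% to 26.7%, from 18.4% to 20.3% and from 9.28% to 12.8%. Members of the last class were more often at 0 in at least 1 library, at 41.0%, against 26.2% of members with the canonical hexamer. These levels are a description over sites, which are not replicates.

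**Figure D1:**
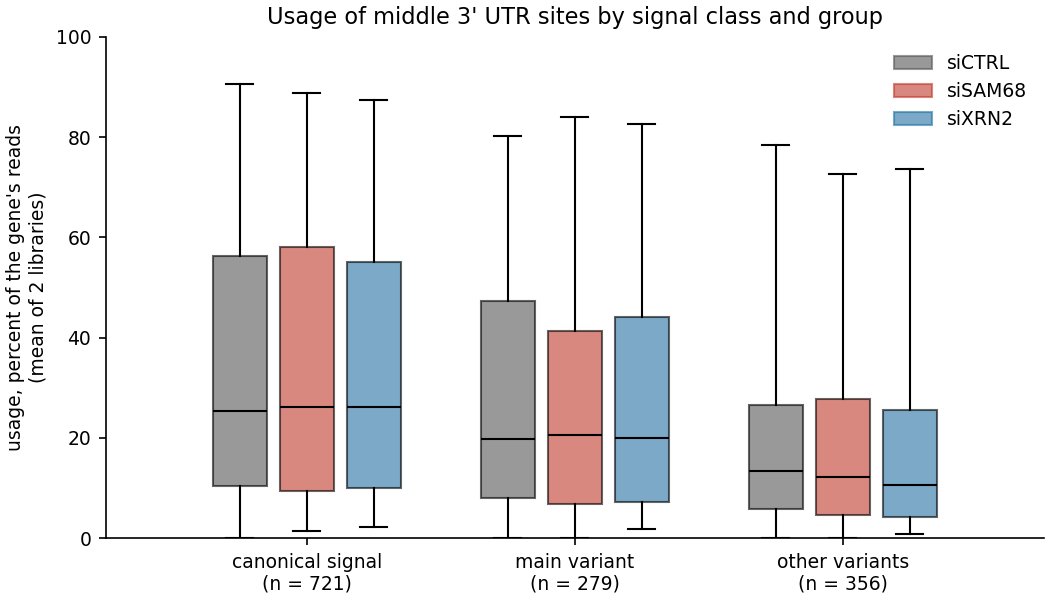
Usage of tested middle sites (vertical axis, percent of the gene's reads, mean of 2 libraries) by signal class and group. Boxes span the quartiles with a line at the median, and whiskers reach the 5th and 95th percentiles over sites. The medians step down from the canonical signal to the main variant to the other variants in all 3 groups.

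Over all members, mean usage ran from 0 to 99.0%, with quartiles of 8.21% and 45.6% and a median of 19.6%. First sites with a signal had a median of 32.8% and last sites with a signal a median of 47.9%. Middle sites took at least 50% of their gene's reads at 312 members and less than 10% at 415. The 5 most used members were those of ACBD7, an acyl-CoA-binding protein, C17orf97, the transcribed pseudogene CROCCP2, KREMEN1, a Dickkopf receptor of the Wnt pathway, and TOP3A, a DNA topoisomerase. Their usage stayed at or above 83.3% in every library, and none of them passed the test in any comparison.

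Of the 1174 genes, 1007 have 1 member, 147 have 2 and 20 have 3 to 5. The table lists a first site for the gene of 250 members, a last site for the gene of 339 and both for 53. In 477 of 477 genes with a first or last site listed, the members lie after the first and before the last along the strand. The median distance was 771 nt to the last site (quartiles 199 and 1958 nt) and 573 nt from the first site (quartiles 209 and 1381 nt). For 478 genes the member is the only site listed, so where the rest of the gene's reads fall was not analysed here. Most members, 1331, are in protein-coding genes and 38 are in long noncoding RNA genes.

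The libraries differ in depth. Reads in the genes of the deposited expression table came to about 244710 and 447370 for siCTRL, 674459 and 788696 for siSAM68, and 597972 and 1599825 for siXRN2. Members at 0 followed depth, with 252 (18.5%) in siCTRL replicate 1 and 52 (3.80%) in siXRN2 replicate 2. The reads of a single gene could be estimated only for genes in the expression table, which cover 205 of the 1369 members. For the other members, those of NCK1, ORC2, EXOG and CHRNA5 among them, the number of reads behind a percent is unknown. Median usage was between 18.8% and 20.0% in all 6. Across members, the replicates of a group correlated with Pearson r = 0.863 for siCTRL, 0.937 for siSAM68 and 0.934 for siXRN2, and differed by a median of 5.83, 3.85 and 4.21 percentage points, given as descriptions across sites. RPM is a count of reads scaled to a total, and the RPM of genes given here and below were rescaled. Each library was brought to the summed RPM of its group, so these levels are not the deposited ones. On that scale KHDRBS1 was at 601 and 741 RPM in siCTRL against 53.8 and 27.5 RPM in siSAM68. XRN2 has no row in the expression table, so its own level was not analysed here. The prostate markers KLK3, KLK2 and HOXB13 were present in all 6 libraries, and none of the 10 stromal, endothelial, immune, neuroendocrine and basal markers looked up is among the listed genes.

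After Sam68 silencing, 204 of 1356 tested members changed usage, 130 upward and 74 downward. The share was 15.0%, and 14.6% of all 4858 tested sites changed by the same rule, an adjusted p under 0.05 in limma on log2(percent + 1). The share higher was 9.59% of members and 8.62% of all sites, and the share lower was 5.46% and 5.93%. Middle sites with a signal thus changed about as often as listed sites in general, and their median change of 0.00 on the log2 scale stood beside -0.03 for all sites. Groups that do not overlap were as frequent among members, at 76.7%, as among all sites, at 76.1%. By signal, 69 rose and 37 fell with the canonical hexamer, 24 and 16 with the main variant, and 37 and 21 with the other variants.

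Many of the calls were at sites that 1 group lists at 0. Of the 130 that rose, 63 were at 0 in both siCTRL libraries, which are the shallowest, and of the 74 that fell 26 were at 0 in both siSAM68 libraries. Above 0 in all 6 libraries were 65 rises, with a median difference of 26.9 percentage points, and 45 falls, with a median of -29.8 points. When limma was fitted on sites above 0 in all 6 libraries only, an alternative chosen after the data were seen, 133 of 938 members rose and 132 fell, beside 440 and 432 of 3387 sites (25.7% changed). The part of depth in the rises from 0 was not tested. Leaving out either siSAM68 library ended all 204 calls, while the count was 75 without siCTRL replicate 1, and 120 and 118 without siXRN2 replicate 1 and 2, which enter the shared estimate of spread. At least 203 of the 204 kept their direction in each of these fits.

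**Figure D2:**
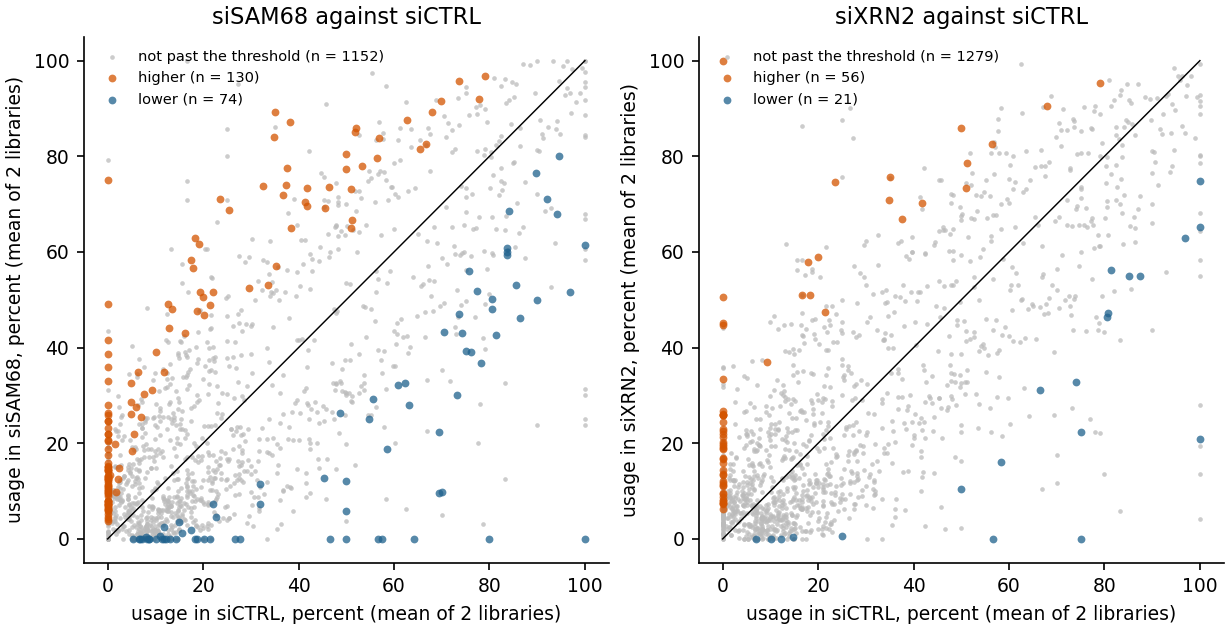
Usage of each tested middle site in siCTRL (horizontal axis) against siSAM68 (left) and siXRN2 (right), in percent as means of the libraries with a value, with the line of equal usage. Orange marks the 130 and 56 sites that rose and blue the 74 and 21 that fell; many of the orange points stand at 0 in the control.

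Among the largest rises above 0 in all libraries was the site of NCK1, an SH2 and SH3 adaptor between receptor tyrosine kinases and actin, at chr3:136667968 (hg19, plus strand). It took 40.0% and 29.6% of the gene's reads in siCTRL, then 84.9% and 83.1% in siSAM68, and 70.6% and 71.0% in siXRN2. The groups do not overlap, and siSAM68 is the highest. The rise after siSAM68 was 1.26 on the log2(percent + 1) scale (SE 0.16, adjusted p = 0.0201 in limma). A site of NCK1 typed as intronic fell in the same libraries from 40.0% and 37.0% to 5.66% and 3.08% (adjusted p = 0.0369), while a second middle site 1067 nt downstream went from 13.3% and 14.8% to 5.66% and 0% (adjusted p = 0.14).

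SHB, another SH2 adaptor, showed the exchange with a first site. Its middle site at chr9:37919129 (minus strand) had 25.0% and 22.2% in siCTRL, then 66.7% and 75.7% in siSAM68, and 63.6% and 85.7% in siXRN2. Its first site, 418 nt upstream, had 37.5% and 22.2%, then 2.56% and 2.70%, then 6.82% and 1.95%. Both silenced groups are above the control at the middle site and below it at the first site. The middle site rose by 1.55 after siSAM68 (SE 0.19, adjusted p = 0.0201) and the first site fell (log2 change -3.04, adjusted p = 0.0424). These control values rest on about 8 and 10 reads of the whole gene.

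IGF2R, the receptor that carries insulin-like growth factor 2 and mannose-6-phosphate-tagged enzymes to lysosomes, has its first site 84 nt before its main middle site. The middle site at chr6:160527583 had 50.0% and 54.1% in siCTRL, then 85.8% and 86.2% in siSAM68, and 69.1% and 79.0% in siXRN2. It rose by 0.71 after siSAM68 (SE 0.09, adjusted p = 0.0213), while the first site fell from 12.5% and 21.6% to 1.47% and 2.37% (adjusted p = 0.0385). The second middle site, 332 nt further on, moved from 25.0% and 21.6% to 6.37% and 1.19% (adjusted p = 0.0603). IGF2R rested on about 16 and 37 control reads and on about 204 and 253 in siSAM68. OLA1, an ATPase of the Obg family, had 80.6% and 77.6% at its middle site in siCTRL and 96.3% and 97.1% in siSAM68, a rise of 0.29 (SE 0.04, adjusted p = 0.0264) that left little to its first site 308 nt upstream.

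TMED7, a p24-family cargo receptor between the endoplasmic reticulum and Golgi, has 5 members, as many as any gene and shared with 2 other genes. The most downstream, at chr5:114949200 (minus strand, canonical hexamer, a position listed under more than 1 symbol), had 14.8% and 22.0% in siCTRL, then 60.4% and 65.3% in siSAM68, and 48.9% and 53.0% in siXRN2. It alone passed the test, with a rise of 1.74 (SE 0.23, adjusted p = 0.0225). The other 4, up to 2399 nt upstream, had group means in siSAM68 below those in siCTRL, with adjusted p between 0.0672 and 0.303.

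Among the falls with the groups far apart were ORC2 and PSMD12. ORC2, a subunit of the origin recognition complex, had 83.3% and 79.3% at chr2:201775603 in siCTRL, then 41.3% and 44.1% in siSAM68, and 57.7% and 54.9% in siXRN2. The 3 groups are apart, with siSAM68 lowest, and the site fell by 0.91 (SE 0.09, adjusted p = 0.0146). The other middle site of ORC2, 400 nt downstream with the canonical hexamer, went from 0% and 3.45% to 28.3% and 16.9% (adjusted p = 0.0507).

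PSMD12, a subunit of the proteasome lid, exchanged a middle site with a variant signal for its last site 114 nt downstream, which has the canonical hexamer. The middle site at chr17:65336733 (minus strand) had 70.0% and 68.9% in siCTRL, then 23.8% and 20.9% in siSAM68, and 33.3% and 44.9% in siXRN2. The last site had 13.3% and 11.1%, then 52.4% and 56.0%, then 42.5% and 33.3%. Every silenced library is below the control at the middle site and above it at the last site. The middle site fell by 1.60 (SE 0.21, adjusted p = 0.0214) and the last site rose by 2.07 (SE 0.24, adjusted p = 0.0196).

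CD164, a sialomucin, is among the deepest of these genes, with about 136 and 292 reads in the siCTRL libraries. Its middle site at chr6:109688482 had 49.3% and 48.0% in siCTRL, then 26.8% and 26.1% in siSAM68, and 33.4% and 32.3% in siXRN2, and fell by 0.85 after siSAM68 (SE 0.17, adjusted p = 0.0424). Its last site, 761 nt downstream, rose from 46.3% and 40.8% to 64.3% and 64.1% (adjusted p = 0.0425). CD164 is one of the members whose spread between replicates was small in all groups. MLL2, a histone H3 lysine methyltransferase, fell from 71.4% and 54.8% to 28.6% and 27.3% at its middle site (log2 change -1.14, SE 0.23, adjusted p = 0.0424).

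**Figure D3:**
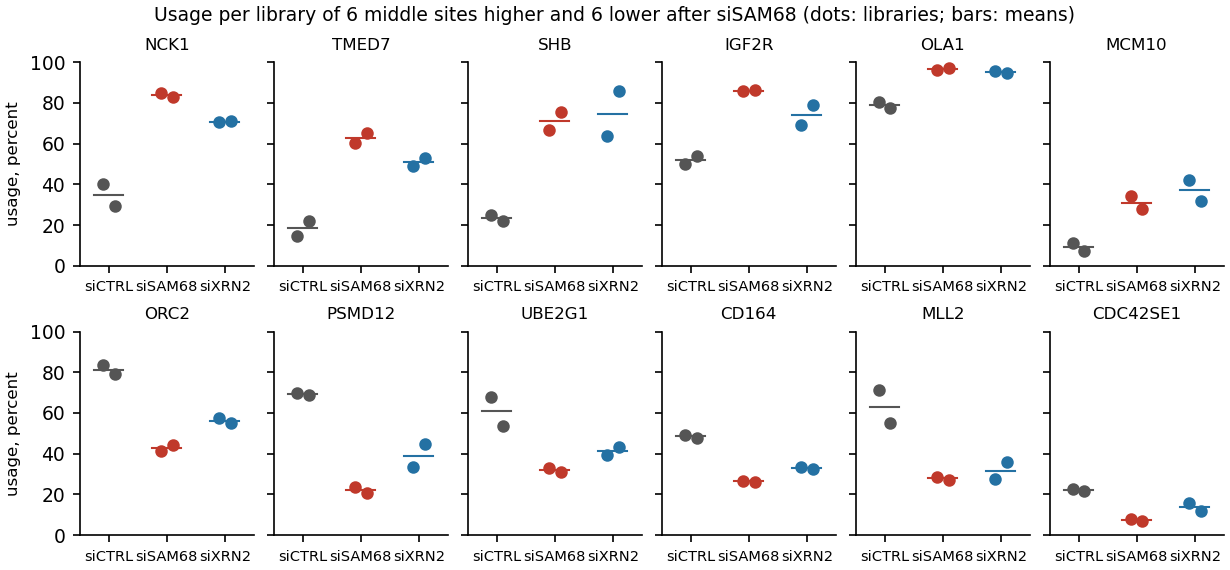
Usage per library (vertical axis, percent) of 6 middle sites that rose (top row) and 6 that fell (bottom row) after siSAM68. Dots are libraries and bars the means of the 2 libraries of a group. In the 12 panels the 2 siSAM68 dots stand apart from the 2 siCTRL dots, and the siXRN2 dots lie on the same side of the control.

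The members were also grouped by gene lists made from symbols. Over all sites, 14.6% were called after siSAM68, 8.62% higher and 5.93% lower, and these shares stand beside every list below. No difference between a list and all sites was tested. In the cell cycle and DNA replication list, 4 of 34 members rose and 2 fell after siSAM68 (17.6%). BIRC5 encodes survivin, an inhibitor of apoptosis and part of the chromosomal passenger complex. Its first listed middle site, chr17:76220780, had 51.9% and 54.5% in siCTRL, then 77.5% and 78.6% in siSAM68, and 70.5% and 66.7% in siXRN2. That was a rise of 0.54 after siSAM68 (SE 0.07, adjusted p = 0.0241), with about 79 and 187 reads of the gene in siCTRL and 364 and 569 in siSAM68. The middle site 652 nt downstream had 26.6% and 29.4% in siCTRL and 13.7% and 11.1% in siSAM68 (adjusted p = 0.0574), and the last site 7.59% and 8.02% against 2.75% and 2.11% (adjusted p = 0.0712). MCM10, a replication initiation factor, rose from 11.1% and 7.50% to 34.3% and 27.9% (log2 change 1.65, SE 0.33, adjusted p = 0.0424). MCM8, a helicase of homologous recombination, and MDM2, the ubiquitin ligase of p53, rose from 0 in both siCTRL libraries to 5.94% and 3.09%, and to 10.0% and 4.24%. ORC2, given above, and CDC42SE1 fell. CDC42SE1 is on the list by its symbol only, since it encodes an effector of the GTPase CDC42, and it went from 22.6% and 21.5% to 7.85% and 6.79% (adjusted p = 0.0481).

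In the list of splicing and RNA-binding proteins, 3 of 20 rose and none fell (15.0%, the share of all members). SRSF4, an SR splicing factor, rose from 6.90% and 2.86% to 23.5% and 28.6% at its middle site (log2 change 2.29, SE 0.47, adjusted p = 0.0431). RBM12B, an RNA-binding motif protein, rose from 33.3% and 26.1% to 53.7% and 51.2% (adjusted p = 0.0439), and SRSF10 rose from 0 in both siCTRL libraries to 11.4% and 6.76%. Of the 2 members in cleavage, polyadenylation and termination factor genes, none passed the test.

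The ubiquitin list had 4 rises and 3 falls among 58 tested (12.1%, with 14.6% over all sites). UBE2D1, a ubiquitin-conjugating enzyme, rose from 71.4% and 64.5% to 87.7% and 90.8% (adjusted p = 0.0375), and the X-linked deubiquitinase gene OTUD5 from 48.3% and 53.7% to 77.3% and 68.9% (adjusted p = 0.0432). UBE2G1, another conjugating enzyme, fell from 67.9% and 53.6% to 33.1% and 31.1% (adjusted p = 0.0422). USP32, a deubiquitinase, fell from 40.0% and 75% to 0 in both libraries.

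Vesicle and membrane trafficking had 3 rises and 1 fall of 39 (10.3%, with 14.6% over all sites). TMED7 is given above. SNX18, an endosomal sorting nexin, rose from 46.7% and 36.1% to 69.2% and 71.7% (adjusted p = 0.0386), and TBC1D24 fell from 85.1% and 76.1% to 46.9% and 49.2% (adjusted p = 0.0329). Kinases and phosphatases had 2 rises and 1 fall of 39 (7.69%). Chromatin and coregulator genes had 2 rises and 1 fall of 16 (18.8%). KAT7, the catalytic subunit of the HBO1 histone acetyltransferase complex, rose from 0 in both siCTRL libraries to 22.2% and 24.1%, and MED13L, of the Mediator kinase module, from 0 to 31.6% and 17.9%.

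Solute carriers and ABC transporters had 4 rises and 1 fall of 27 (18.5%, with 14.6% over all sites). Both members of the sodium-proton exchanger SLC9A8 rose, one from 5.56% and 5.56% to 20.4% and 23.4% (adjusted p = 0.0435) and the other from 0 to 8.16% and 4.26%. SLC23A2, a vitamin C transporter, fell from 64.3% and 60.5% to 28.6% and 36.6% (adjusted p = 0.0394). Zinc finger factors had 8 rises and 8 falls of 65 (24.6%, with 14.6% over all sites, a difference that was not tested). ZNF800 fell from 84.6% and 82.6% to 60.9% and 59.0% (adjusted p = 0.0422), and ZNF394 rose from 22.2% and 12.5% to 60.0% and 56.5% (adjusted p = 0.0356). In this list 6 of the 8 rises and 5 of the 8 falls involved a group listed at 0 in both libraries, so no fold is given for them.

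Prostate and androgen-responsive genes had 2 rises of 9 members (22.2%, with 14.6% over all sites). ACPP, prostatic acid phosphatase, has 2 members 29 nt apart. The downstream one, chr3:132077633, had 7.69% and 6.25% in siCTRL, then 24.0% and 27.0% in siSAM68, and 21.4% and 28.6% in siXRN2, and rose after siSAM68 by 1.74 (SE 0.32, adjusted p = 0.0385), on about 13 and 17 control reads of the gene. The upstream one, with the canonical hexamer, was the more used of the 2 in siSAM68, at 60.0% and 62.2%. Its own change from siCTRL missed the threshold (adjusted p = 0.0539 in limma). LIFR, the receptor of leukaemia inhibitory factor, is described with the paired sites below.

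By size alone, the 10 largest rises after siSAM68 at a mean usage of at least 10% were all at sites listed at 0 in both siCTRL libraries. They include ZNF543 (58.3% and 40.0% in siSAM68), BLCAP (27.3% and 50.0%), HEATR5B (33.3% and 50.0%), FRMD4B (33.3% and 19.2%) and FAM165B (46.2% and 20.0%). The largest falls were at sites listed at 0 in both siSAM68 libraries, among them PCDHB13 (100% and 100% in siCTRL), GORASP1, a Golgi stacking protein (100% and 60.0%), ZDHHC17, a palmitoyltransferase (100% and 28.6%), and MBTD1 (66.7% and 33.3%). The depth behind these values is unknown, since PCDHB13, GORASP1, ZDHHC17, MBTD1, ZNF543, BLCAP, HEATR5B, FRMD4B and FAM165B are not among the genes of the expression table. Protocadherin and zinc finger genes have near-identical relatives, and the authors' handling of reads that map to several places is not given in the sources used here.

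After XRN2 silencing, 77 members changed, 56 upward and 21 downward, at 5.68% against 5.21% of all sites. On the linear percent scale 10 members were called, and 7 of the 77 kept their call. The shares higher were 4.13% of members and 3.81% of all sites, and the shares lower 1.55% and 1.40%. The median change was 0.00 on the log2 scale, and groups did not overlap at 71.5% of members and 71.0% of all sites. Of the rises, 39 were at 0 in both siCTRL libraries, and 17 rises (median 29.4 points) and 13 falls (median -34.1 points) were above 0 in all 6. In the fit on sites above 0 throughout, 32 rose and 20 fell, with 4.61% of such sites called. Leaving out either siXRN2 library or either siSAM68 library ended all the calls, and leaving out either siCTRL library ended many of the 77. Sites called in those last fits were thus partly others. At least 76 of the 77 kept their direction in each fit with 1 library left out.

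EXOG, a mitochondrial endonuclease, had the largest fall in percentage points among called members above 0 in all libraries, while CHRNA5 and ABI2 fell further on the log2 scale (changes of -2.17 and -1.79). Its middle site at chr3:38567794 had 71.4% and 78.6% in siCTRL, then 55.0% and 57.5% in siSAM68, and 26.5% and 18.1% in siXRN2. Here siXRN2 is the lowest group and siSAM68 lies between. The fall after siXRN2 was 1.73 (SE 0.21, adjusted p = 0.0293), and the middle site 1180 nt upstream had 14.3% and 14.3% in siCTRL and 44.9% and 45.1% in siXRN2 (adjusted p = 0.0593).

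APOL2, an apolipoprotein L, fell at its middle site from 83.3% and 64.7% to 34.4% and 31.2% after siXRN2 (log2 change -1.14, SE 0.16, adjusted p = 0.0356), with its only other listed site, the last one, at 16.7% and 35.3% in siCTRL and 65.6% and 68.8% in siXRN2 (adjusted p = 0.0761). ZBTB38, a zinc finger repressor that binds methylated DNA, fell from 90.0% and 84.8% to 56.5% and 53.3% (adjusted p = 0.0245). CHRNA5, a nicotinic receptor subunit, fell from 50.0% and 50.0% to 10.0% and 10.7% (adjusted p = 0.0324). The depth of CHRNA5 is unknown, so its equal control values are weak evidence of a small spread. ABI2, an Abl interactor, AKAP5, an anchor of protein kinase A, MR1, which presents vitamin metabolites to T cells, and KDELR1, the retrieval receptor of endoplasmic reticulum proteins, also fell, with adjusted p between 0.0341 and 0.0479.

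IFNAR2, a chain of the type I interferon receptor, rose at its middle site, chr21:34637969. It had 50.0% and 50.0% in siCTRL, then 76.9% and 77.8% in siSAM68, and 83.3% and 88.6% in siXRN2, a rise of 0.77 after siXRN2 (SE 0.07, adjusted p = 0.0129). These control values rest on about 10 and 11 reads of the whole gene, so their equal values and the small SE are weak evidence of a small spread. A site of the gene typed as intronic had 12.5% and 20.0% in siCTRL and 0% and 2.01% in siXRN2 (adjusted p = 0.0593). SRR, serine racemase, rose from 20.0% and 20.0% to 61.5% and 56.2% (adjusted p = 0.02), and FAM134B, a receptor of endoplasmic reticulum autophagy, from 50.0% and 52.4% to 79.5% and 77.7% (adjusted p = 0.0293). FAM134B rested on about 12 and 21 control reads. No read depth is given here for SRR, so its equal control values are likewise weak evidence of a small spread. By list, the calls after siXRN2 ran from none in the splicing, cleavage factor and kinase lists to 7 of 65 zinc finger members (10.8%). Of these 7, 6 were higher, and over all sites 5.21% were called and 3.81% were higher. The chromatin list had 2 of 16 (12.5%), the prostate list 1 of 9 (11.1%) and the cell cycle list 3 of 34 (8.82%). The transporter, ubiquitin and trafficking lists had 1 of 27 (3.70%), 2 of 58 (3.45%) and 1 of 39 (2.56%). No difference between lists was tested.

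MALAT1, a nuclear long noncoding RNA, has 2 members. Its site at chr11:65271101 had 40.8% and 42.9% in siCTRL, then 74.9% and 72.0% in siSAM68, and 69.2% and 71.2% in siXRN2, and rose by 0.80 (SE 0.08, adjusted p = 0.0154) and 0.73 (SE 0.08, adjusted p = 0.0245), while the site 2839 nt downstream was lower in group mean without passing the test.

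The comparisons with siCTRL share the control libraries, so their common direction at a site is partly built in. Sites tested directly between siSAM68 and siXRN2 gave 0 calls of 1356 members and of all 4858 sites (0%), with 198 members at an unadjusted p under 0.05 in limma and the lowest adjusted p of 0.0566. These groups did not overlap at 55.2% of members and 52.2% of all sites. That p belonged to PCDHB13, GORASP1 and GEMIN8P4, each with a group listed at 0. A p that misses the threshold does not show that the silenced groups were alike at these sites.

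Where the gene has a last site, the member was set against it as log2((member + 1) / (last + 1)). After siSAM68, 148 of 335 ratios changed (44.2%, with 38.8% over all 853 ratios), 66 toward the middle site (15.6% over all) and 82 toward the last (23.2% over all). Their median was -0.28, beside -0.69 for the 478 first sites, with or without a signal, set against the last site in the same way. Those first sites are mostly in other genes, as only 53 members have a gene that lists both a first and a last site. After siXRN2, 66 changed (19.7%, with 14.9% over all), 28 toward the middle (5.98% over all) and 38 toward the last (8.91% over all), with a median of -0.27 beside -0.53 for first sites. Against the first site, 41 of 247 members gained (16.8% over all) and 44 lost (12.9% over all) after siSAM68 (34.4%, with 29.7% over all 752), with a median of -0.14, while last sites had a median of 0.69 against first sites. After siXRN2, 5 gained (2.13% over all) and 5 lost (1.20% over all), or 4.05% of members with 3.32% over all. Set directly against siXRN2, siSAM68 had a higher ratio to the last site at 1 member (0.234% over all) and a lower one at 1 (0.117% over all), with 0.352% over all in either direction. The medians of middle sites were closer to 0 than those of first and last sites on both sides. This is a description of the lists, since the sites of a gene share 1 total, and the difference was not tested. Leaving out any 1 library but siCTRL replicate 2 moved these counts by more than 1.5 times. After siSAM68 the ratio to the last site was then called at 33 members without siCTRL replicate 1, at 4 and 15 without siSAM68 replicate 1 and 2, and at 51 and 65 without siXRN2 replicate 1 and 2. After siXRN2 it was called at 3, 16, 17, 0 and 5 members in the same order. The ratio to the first site after siSAM68 was called at 21, 0, 0, 17 and 17 members in that order, and after siXRN2 at 0, 2, 2, 1 and 1, with 28 without siCTRL replicate 2.

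**Figure D4:**
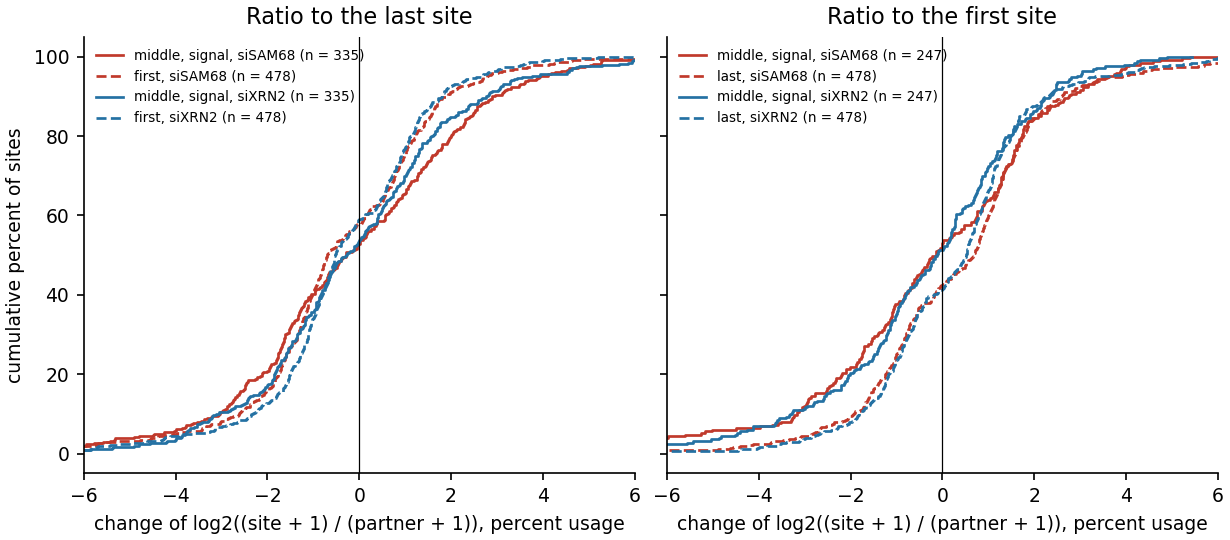
Cumulative percent of sites (vertical axis) by the change of the ratio to the last site (left) or to the first site (right), log2 scale with 1 percentage point added. Solid lines are middle sites with a signal and dashed lines first or last sites with or without a signal, in red for siSAM68 and blue for siXRN2. The solid lines cross 0 near the middle of the scale, with medians of -0.28 and -0.14 for siSAM68, and the dashed lines are shifted left (median -0.69) and right (median 0.69).

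The median ratio to the last site did not follow the order of distance after siSAM68, and it did after siXRN2. Members 351 to 1575 nt before the last site had a median of -0.86 after siSAM68, and those nearer (25 to 341 nt) and farther (1579 to 16305 nt) had medians of 0.03 and 0.01. After siXRN2 the medians were 0.09 for the nearest members, -0.14 for those in the middle range and -0.50 for the farthest. For the ratio to the first site after siSAM68, members within 308 nt of it had a median of 0.71. Those from 327 to 1040 nt away had -0.21, and those from 1044 to 8364 nt away -0.47. After siXRN2 the medians were 0.11, -0.26 and -0.10 in that order. A link with distance was not tested. Near pairs moved both ways. At 143 nt, SRSF4 gained over its last site by 2.74 after siSAM68 (SE 0.53, adjusted p = 0.0273), and its last site had 82.8% and 88.6% in siCTRL and 58.8% and 65.7% in siSAM68. At 176 nt, AKIRIN1 gained by 2.57 (SE 0.49, adjusted p = 0.0273), with the middle site at 25.0% and 40.0% in siCTRL and 70.4% and 77.3% in siSAM68. At 114 nt, PSMD12 lost 3.66 to its last site (SE 0.37, adjusted p = 0.0107).

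CDK12, a kinase of the RNA polymerase II tail whose loss is known to alter polyadenylation, lost 3.20 to its last site 2270 nt away after siSAM68 (SE 0.47, adjusted p = 0.0221). Its middle site had 50.0% and 26.7% in siCTRL and 10.96% and 10.4% in siSAM68, and its last site 14.3% and 5.00% in siCTRL and 24.7% and 28.1% in siSAM68. The usage of the middle site alone missed the threshold (adjusted p = 0.0507). BTAF1, a TATA-binding-protein ATPase, gained 3.95 over its last site 98 nt away after siXRN2 (SE 0.68, adjusted p = 0.0366), from 12.5% and 25.0% against 62.5% and 50.0% in siCTRL to 55.6% and 57.1% against 11.1% and 9.52%. VAMP4, a SNARE of the trans-Golgi, lost 3.48 to its last site after siXRN2 (SE 0.57, adjusted p = 0.0328).

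Of the 167 genes with several members, neighbouring members lie a median of 636 nt apart, and 18 of 195 neighbouring pairs are under 100 nt apart. Of the 357 tested members in these genes, 52 changed after siSAM68 (14.6%) and 25 after siXRN2. Of the 999 tested members that are the only one in their gene, 152 (15.2%) and 52 (5.21%) changed, beside 14.6% and 5.21% of all sites. At least 1 member changed in 45 of these genes after siSAM68 and in 23 after siXRN2. At least 2 changed in 7 and 2 genes, in opposite directions in 3 and 2 of them. ACAT2, the cytosolic thiolase that makes acetoacetyl-CoA for sterol synthesis, has 2 members 153 nt apart, both with the canonical hexamer. The upstream one, chr6:160199930, had 75% and 66.1% in siCTRL, then 44.8% and 41.7% in siSAM68, and 52.7% and 43.7% in siXRN2. The downstream one, chr6:160200083, had 19.2% and 23.6%, then 47.1% and 50.8%, then 44.4% and 50.4%. The upstream site is far above the downstream one in siCTRL and close to it in both silenced groups, with a fall of 0.69 (SE 0.14, adjusted p = 0.0436) and a rise of 1.16 (SE 0.19, adjusted p = 0.0327) after siSAM68.

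In LIFR the downstream member, chr5:38475065 on the minus strand, had 20.0% and 15.8% in siCTRL, then 58.5% and 54.8% in siSAM68, and 48.1% and 67.7% in siXRN2, and rose after both (adjusted p = 0.0275 and 0.0362). The member 2981 nt upstream had 60.0% and 52.6%, then 22.0% and 33.3%, then 29.6% and 15.2% (adjusted p = 0.104 and 0.0904). UBE2G1 ran the other way, its downstream member falling while the member 2172 nt upstream had 13.9% and 29.8% in siCTRL and 54.6% and 54.4% in siSAM68 (adjusted p = 0.0614). C8orf41, TTC30A and, after siXRN2, PTCH1 also had members called in opposite directions, each with one of them listed at 0 in both siCTRL libraries.

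**Figure D5:**
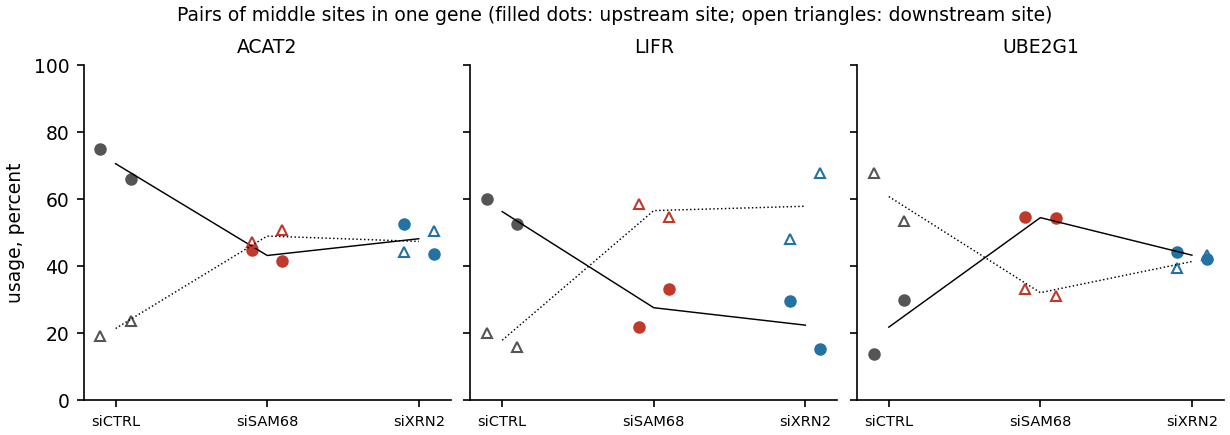
Usage per library (vertical axis, percent) of the upstream and the downstream middle site of 3 genes, with lines through the group means. In ACAT2 and LIFR the downstream site is the lower one in siCTRL and the higher one in siSAM68, and in UBE2G1 the order is the reverse.

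Expression was given for 180 of the genes with a member. After siSAM68, 80 were higher (35.3% over all genes) and 15 lower (23.4% over all), or 52.8% beside 58.8% of all 1938 tested genes. After siXRN2, 37 were higher (21.2% over all) and 7 lower (12.1% over all), or 24.4% beside 33.3%. The median change was 0.56 on log2(RPM + 1) after siSAM68, where all genes had 0.16, and 0.24 after siXRN2, where all had 0.08. With median-of-ratios scaling the counts were 70 and 22, and 28 and 9. In both directions together the siSAM68 count of 95 was 41 without siCTRL replicate 1, and 50 and 26 without siSAM68 replicate 1 and 2. The siXRN2 count of 44 was 13 without siCTRL replicate 1, 27 without either siSAM68 library and 22 without siXRN2 replicate 2. In bulk RNA, fewer cells that express a gene and less RNA per cell cannot be told apart. Of the 31 genes with a called member after siSAM68, 16 were higher and 1 lower. IGF2R rose from 22.3 and 28.2 rescaled RPM in siCTRL to 105 and 112 in siSAM68 (log2 change 2.07, SE 0.25, adjusted p = 0.000241). BIRC5, CD164, OLA1, TMED7, CDC42SE1 and MALAT1 also rose, by 0.64 to 1.11 on the same log2 scale.

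In the authors' deposited table, 1118 members (81.7%) score 1.3 or more in size in either comparison, 768 for siSAM68 and 661 for siXRN2. Whether the listed sites were chosen by this score is not known from the sources used here. If they were chosen by their change in these libraries, the adjusted p-values above can be too small.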

How the data were processed

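The authors deposited 1 table of site usage and 1 of gene expression for the 6 libraries. Per the submitters' processing notes, the tools were cutadapt and Bowtie2 and the genome hg19. Their versions are not stated in the sources used here. Usage is a percent of a gene's reads and expression is RPM, per the file headers. The deposited RPM has a smallest step of 0.492 for siCTRL, 0.238 for siSAM68 and 0.157 for siXRN2, the same for both libraries of a group, and these steps gave the approximate reads per gene. What the authors' deposited score measures is not defined in those sources.

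Usage was tested on log2(percent + 1) for sites with a mean of at least 1%, over all listed sites, and ratios between sites of a gene on the same scale. A change on this scale understates that of low sites. Of the 1369 members, 12 were under 1% and 1 had no value in a whole group. For 10 tested members with a library without a value, that library was dropped from the site's fit, ZNF354B among them. Expression was tested on log2(RPM + 1) after each library was scaled to the summed RPM of its group. limma 3.58.1 in R 4.3.3 fitted all 3 groups together with a mean-variance trend and Benjamini-Hochberg adjustment over all listed sites or genes. No count test was run, as whole reads could not be recovered from the RPM of siXRN2. Data were simulated for siSAM68 against siCTRL over 4230 sites. At changes of 2 on the log2 scale, limma called 34 of 50 raised sites and 29 of 50 lowered ones. At changes of 1 it called 8 of 50 in each direction. Of 4030 unchanged sites it called 2, and 281 had an unadjusted p under 0.05 in limma. These counts hold for the simulated sites only. The real fit took 4858 sites, including sites at 0 in a library, from libraries of unequal depth. Its rate of false calls was not measured.

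Named sites were the 10 largest rises and falls past the threshold at a mean usage of at least 10% with groups that do not overlap, called members of the gene lists and the 5 most used members. The 8 largest of each direction above 0 in all libraries, called members in the expression table and the site pairs were added after the values were seen. The members and lists were chosen with earlier results of these data known. Alternatives were the pseudocount, filters, scale, trend, replicate block, signal classes and each library left out. Sequences around the sites were not used here. Figures were drawn with matplotlib 3.10.9.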

Additional observations from a re-analysis of the deposited data

Results flagged for a closer look

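A pair of ratios between a middle and a last site differed between the silenced groups when siSAM68 was tested directly against siXRN2 in limma, among 335 members tested. In EXD2, an exonuclease of DNA repair, the ratio at chr14:69709075 was higher in siSAM68 by 3.33 on the log2 scale (adjusted p = 0.0454). The member had 83.3% and 81.4% in siCTRL, then 92.5% and 96.9% in siSAM68, and 85.3% and 83.6% in siXRN2. The last site was listed at 0 in both siSAM68 libraries and had 8.82% and 7.27% in siXRN2. In ZNF354B, a zinc finger protein, the ratio at chr5:178311424 was lower in siSAM68 by a log2 difference of -5.11 (adjusted p = 0.0454). The member was listed at 0 in both siCTRL libraries, had 75% in siSAM68 replicate 1 with no value in replicate 2, and had 100% in both siXRN2 libraries. The last site had 100% in both siCTRL libraries and 25.0% in siSAM68 replicate 1, and was listed at 0 in both siXRN2 libraries. As siSAM68 has 1 library with a value here, the spread comes from the other groups and the p rests on the assumption that this library varies like them. The depth of ZNF354B and EXD2 is unknown.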

How the results depend on the processing

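No called result changed direction under the alternatives run. After siSAM68, members called in usage numbered 204, against 35 with the replicate block and 0 to 255 with 1 library left out. After siXRN2 they numbered 77, against 126 with pseudocount 0.1, 10 on the linear percent scale, 0 with the block and 0 to 128 with 1 library left out. Between the silenced groups 0 were called, against 4 with pseudocount 0.1, 1 with pseudocount 5, 8 without the trend and 0 to 0 with 1 library left out. For the ratio to the last site, the siSAM68 count of 148 was 91 with the block and 4 to 138 with 1 library left out, and the siXRN2 count of 66 was 38 and 101 with pseudocounts 0.1 and 5, 6 with the block and 0 to 78 with 1 library left out. For the ratio to the first site, the siSAM68 count of 85 was 36 with pseudocount 0.1, 9 with the block and 0 to 69 with 1 library left out. The siXRN2 count of 10 was 57 with pseudocount 5, 4 at a mean usage of at least 5%, 16 without the trend, 0 with the block and 0 to 28 with 1 library left out. Expression counts of 95 and 44 ran from 26 to 101 and from 13 to 47 with 1 library left out. A library left out leaves its group with 1, which is assumed to vary like the other groups, and the fit has 3 residual degrees of freedom in full. Filters gave all other counts within 1.5 times, and the cause of the moves was not tested. Replicate numbers were not shown to pair the libraries, since deviations from the group means correlated at 0.016, 0.090 and -0.020 across 1346 sites. At 0 in siCTRL were 252 and 155 members, and what depth contributes to the spread was not tested.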
